A study of Mus musculus with 6 samples.

Results

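AP-1 and related basic leucine zipper (bZIP) genes were examined in stage 0 iNKT cells from the thymus of BALB/c mice and of SKG mice. The 8 members are Fos, Fosb, Fosl2, Jun, Junb, Jund, Batf and Bach2, found by symbol among the 48397 genes of the count table, and all 8 have a row there. Stage 0 cells are the earliest iNKT precursors in the thymus, just after positive selection by CD1d. They were sorted as PBS57-CD1d tetramer+ CD24+ CD69+ CD44- CD8- cells with little or no CD4. Both genotypes are on the BALB/c strain background, and animals were 8 to 10 weeks old. The BALB/c mice are wild type. The SKG mice carry a hypomorphic Zap70 mutation in every cell, which weakens signaling by the TCR, so the comparison asks how a weaker TCR signal alters these cells at their first stage. Each genotype has 3 libraries, and each library comes from about 1000 cells of 3 pooled thymi, which makes the pool the unit of replication.

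bZIP factors bind DNA as dimers, held together by a leucine zipper next to a basic region that contacts the DNA. FOS proteins cannot pair with each other and need a JUN partner, whereas JUN proteins can also form dimers among themselves. The resulting AP-1 dimers are products of the MAP kinase branch of TCR signaling and bind together with NFAT, the product of the calcium branch, at many genes of activated T cells. BATF pairs with JUN proteins and shares sites with IRF4. BACH2 pairs with small MAF proteins and occupies AP-1-like sites as a repressor. Fos, Jun and Junb are immediate early genes, transcribed within minutes of a stimulus without new protein synthesis.

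Jun was the member whose libraries separated the genotypes, with a higher level in SKG, and Fos, Junb, Jund, Batf and Bach2 overlapped between the genotypes. None of the 6 members with enough reads to be tested passed an FDR under 0.1 with a fold change of at least 1.5 in edgeR's quasi-likelihood test. The count was 0 of 6, against 0 of 12312 genes tested (0.00%). At an unadjusted p under 0.05 it was 1 of 6 (Jun), against 5.45% of all genes tested. It was 0 in 8 of 19 alternatives, which include some that changed only the threshold and so kept these p-values. BALB/c and SKG libraries were without overlap for 1 of 6 members, against 13.9% of all genes in either direction, 6.77% with SKG higher and 7.12% with BALB/c higher. Among only 6 members, 1 without overlap is near the share in either direction. DESeq2 called 0 of the 6 without shrinkage of the fold changes, where it called 2.58% of all genes with an adjusted p. It also called 0 of the 6 with shrinkage (1.67% of all genes), as did edgeR's likelihood ratio test (0.780% of all genes). The median log2 fold change of the 6 was -0.073, against -0.016 over all genes tested. Fold changes are SKG over BALB/c throughout.

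The promoters of Jun and Fos are shown because these genes are the classical AP-1 pair and their libraries ranked differently here. The 250 bases before the RefSeq start site were read from GRCm38.p6, 5′ to 3′ on the strand of the gene. The Jun window lies on the minus strand at chr4:95052223-95052472, and the Fos window on the plus strand at chr12:85473640-85473889. Capitals mark the CRE-like sequence TGACATCA in Jun and the TATAAA of the TATA box in Fos.
Jun: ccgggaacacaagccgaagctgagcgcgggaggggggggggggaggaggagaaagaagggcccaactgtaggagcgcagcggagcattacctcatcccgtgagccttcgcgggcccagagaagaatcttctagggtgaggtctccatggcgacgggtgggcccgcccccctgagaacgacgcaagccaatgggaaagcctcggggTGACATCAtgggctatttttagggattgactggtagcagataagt
Fos: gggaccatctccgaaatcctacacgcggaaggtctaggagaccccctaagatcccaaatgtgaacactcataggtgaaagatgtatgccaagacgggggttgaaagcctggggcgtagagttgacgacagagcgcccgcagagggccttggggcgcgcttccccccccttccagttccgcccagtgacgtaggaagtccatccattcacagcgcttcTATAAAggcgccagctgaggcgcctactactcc
The windows of all 8 members were searched on both strands for the AP-1 sequence TGAGTCA, the CRE TGACGTCA, TGACATCA, the EGR sequence GCGNGGGCG, TATAAA and the CArG box of serum response factor. TGACATCA lay 45 to 38 bases before the Jun start and occurs in 2.93% of 32851 such windows. TATAAA lay 33 to 28 bases before the Fos start and occurs in 12.4% of windows. GCGGGGGCG, one form of the EGR sequence, lay in the windows of Fosb and Fosl2, and 4.70% of windows hold that motif. No match to any of these was found for Junb, Jund, Batf or Bach2. The RefSeq windows of Fosl2 (chr5:32136222-32136471), Jund (chr8:70697489-70697738) and Bach2 (chr4:32417185-32417434) do not adjoin the GENCODE gene starts given below. The Jund window lies before the start, and those of Fosl2 and Bach2 lie inside the genes. Windows of Fosb and Batf span the start, and that of Junb stops just short of it. TGAGTCA (4.46% of windows), TGACGTCA (1.55%) and the CArG box (1.47%) were in 0 of the 8 windows. A match is a match of letters only, and sites farther upstream were not searched. TGACATCA was put on the list as the Jun-type form of the CRE, so its match in Jun is no test. Other variants of the CRE were not searched, such as the unmarked tgacgtag in the printed Fos window. The search therefore does not show that Fos lacks a CRE-like sequence.

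Jun encodes c-JUN, the prototype JUN partner of FOS. It is a gene of 1 exon on chromosome 4 of GRCm38, from 95049034 to 95052222 on the minus strand, next to the window printed above. Its reads numbered 1723, 551 and 1687 in BALB/c replicates 1 to 3 and 2112, 4168 and 2125 in SKG replicates 1 to 3. As CPM, reads scaled to the TMM-normalized library size, these are 41.8, 14.9 and 37.4 in BALB/c and 52.4, 107 and 58.8 in SKG. Every SKG library was above every BALB/c library, although the highest BALB/c value and the lowest SKG value were close, and SKG replicate 2 and BALB/c replicate 2 were the extremes. Means were 31.3 ± 14.4 CPM in BALB/c against 72.8 ± 30.0 in SKG (SD, n = 3 libraries each). The fitted log2 fold change was 1.22 (standard error 0.51, 95% interval 0.003 to 2.43), or 2.32-fold. The unadjusted p of edgeR's quasi-likelihood test was 0.0496 and the adjusted p 0.912. An exact two-sided permutation test gave p = 0.1, the smallest that 3 against 3 libraries allow. Omitting 1 library at a time gave log2 fold changes between 0.84 (SKG replicate 2 omitted) and 1.49 (BALB/c replicate 1 omitted). In bulk RNA, fewer cells that express a gene and less RNA per cell cannot be told apart.

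**Figure D1:**
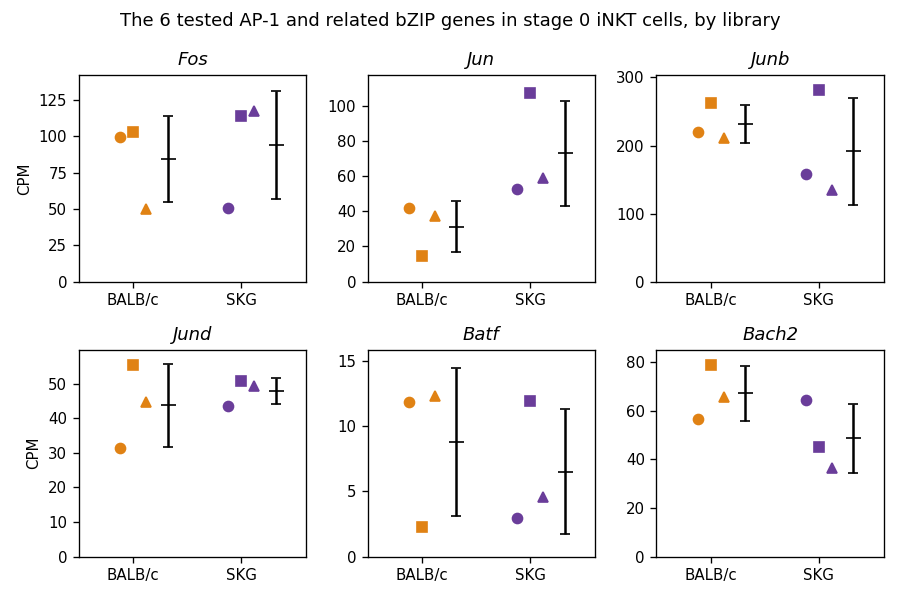
CPM of the 6 tested members in each library (y axis, linear from 0) by genotype (x axis); circles, squares and triangles are replicates 1, 2 and 3, and black bars are the mean with SD of 3 libraries. Only in the Jun panel do all 3 SKG points, 52.4 to 107 CPM, sit above all 3 BALB/c points, 14.9 to 41.8 CPM.

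Junb, which encodes a JUN protein known to be abundant in activated T cells, had the highest level per kb of exon among the members. It lies on chromosome 8 from 84974484 to 84978718. Junb was at 220, 263 and 212 CPM in BALB/c and at 159, 281 and 134 in SKG. Replicates 1 and 3 of SKG were below all BALB/c libraries, and SKG replicate 2 was above them all, so the genotypes overlapped. The log2 fold change was -0.28 (standard error 0.30, 95% interval -0.99 to 0.44, edgeR adjusted p = 0.991). Without SKG replicate 2 it was -0.65, and without SKG replicate 3 it was -0.059. Over 173 nt the exons of Junb overlap those of Prdx2 on the other strand, a gene with 5246 to 8986 reads per library, and reads there cannot be assigned by these unstranded counts.

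Jund encodes the JUN protein that is expressed in most resting cells. It is a gene of 1 exon on chromosome 8 from 70698949 to 70700616. Jund was at 31.3, 55.4 and 44.6 CPM in BALB/c and at 43.6, 50.8 and 49.3 in SKG. It was the steadiest member, with a highest library 1.77 times the lowest, and the SKG range lay within that of BALB/c. Its log2 fold change was 0.13 (standard error 0.33, 95% interval -0.67 to 0.93, edgeR adjusted p = 0.991). It turned to -0.056 without BALB/c replicate 1 and was 0.33 without BALB/c replicate 2. An antisense gene, Gm11175, shares 877 of the 1668 exon nt of Jund in GENCODE and had 0 reads in every library, so reads in the shared part may have gone uncounted and the Jund level may be understated.

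The make-up of the Jun family was compared as shares of CPM per kb of exon. Jun took 10.3%, 3.06% and 8.98% of the summed CPM per kb of Jun, Junb and Jund in BALB/c, and 14.7%, 18.1% and 17.3% in SKG. These shares did not overlap, at 7.43% ± 3.84 in BALB/c against 16.7% ± 1.75 in SKG (SD, n = 3 libraries each). SKG replicate 2, in which Junb was also highest, no longer stood apart from the other SKG libraries in this share. Junb took 70.5% to 75.1% in BALB/c and 54.9% to 65.6% in SKG, also without overlap, whereas Jund took 14.7% to 21.9% and 16.4% to 27.8%, with overlap. Shares of a sum are not independent of each other, and these were computed with the levels of the 3 genes already known, so they are given without a test. With Jund measured over only the 791 exon nt that it does not share with Gm11175, an alternative chosen after seeing the data, Jun took 2.47% to 8.82% in BALB/c and 11.7% to 15.3% in SKG.

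Fos encodes c-FOS, which needs a JUN partner to bind DNA. The gene lies on chromosome 12 from 85473890 to 85477273 on the plus strand, directly after the window printed above. Its reads numbered 4095, 3816 and 2259 in BALB/c and 2048, 4415 and 4242 in SKG. In CPM these are 99.3, 103 and 50.0 in BALB/c and 50.8, 114 and 117 in SKG. Each genotype held a pair of libraries near 100 CPM or above and 1 library near 50 CPM, BALB/c replicate 3 and SKG replicate 1. Means were 84.1 ± 29.5 CPM in BALB/c against 93.9 ± 37.4 in SKG (SD, n = 3 libraries each). The log2 fold change was 0.16 (standard error 0.43, edgeR adjusted p = 0.991), with a 95% interval from -0.86 to 1.18 that holds changes of more than 1.5-fold in either direction. Its direction turned when BALB/c replicate 3 (-0.10) or SKG replicate 3 (-0.015) was left out.

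Fosb and Fosl2, also FOS genes, had few reads. Fosb, an immediate early gene on chromosome 7 from 19302696 to 19310051, had 2 reads in BALB/c replicate 2 and 0 in the other libraries. For counting error alone, a count of 0 allows up to 3 reads, which is 0.0664 to 0.0830 CPM in these libraries. Zeros also occurred among well-read genes. Where some library of a genotype held 100 reads or more, its other libraries included a zero for 10.7% of genes (BALB/c) and 10.1% (SKG). A count of 0 therefore does not bound the level in the cells this tightly. Fosl2 encodes FRA-2, a FOS protein without the strong activation domain of c-FOS, and lies on chromosome 5 from 32135801 to 32157842. It had 89, 0 and 9 reads across the BALB/c libraries, against 1, 0 and 0 for SKG. Nearly all of its reads therefore came from BALB/c replicate 1. Neither gene had enough reads to pass the filter of the edgeR fit. BALB/c replicate 1 also had the highest summed level of the erythroid markers, 35.1 CPM against 0.0257 to 1.15 in the others, all of it from globin genes, with Alas2 and Klf1 at 0. Its summed DP thymocyte (437 CPM) and B cell markers (6.84 CPM) were also the highest. The sort on tetramer+ CD8- cells is meant to leave out these cell types, and their part in the Fosl2 reads was not tested.

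Batf encodes a small bZIP protein that pairs with JUN proteins and is needed by several effector T cell programs. It lies on chromosome 12 from 85686669 to 85709087. Batf was at 11.8, 2.26 and 12.3 CPM in BALB/c and at 2.98, 12.0 and 4.56 in SKG. High libraries (near 12 CPM) and low libraries (under 5 CPM) occurred in both genotypes, and the highest library was 5.45 times the lowest. The log2 fold change was -0.44 with a standard error of 1.02 (95% interval -2.88 to 2.01, edgeR adjusted p = 0.991). Without SKG replicate 2 it was -1.21, and without SKG replicate 1 it was -0.094.

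Bach2 encodes a repressor that restrains effector genes in T cells and maintains their resting state. It lies on chromosome 4 from 32238804 to 32586108. Its reads numbered 2339, 2928 and 2974 in BALB/c and 2589, 1757 and 1323 in SKG, which are 56.7, 78.9 and 65.8 CPM and 64.3, 45.2 and 36.6 CPM. SKG replicates 2 and 3 were below all BALB/c libraries, and SKG replicate 1 lay among them. Means were 67.2 ± 11.2 CPM in BALB/c against 48.7 ± 14.2 in SKG (SD, n = 3 libraries each). The log2 fold change was -0.46 (standard error 0.32, 95% interval -1.23 to 0.30, edgeR adjusted p = 0.988). It was below 0 whichever library was omitted, between -0.72 (SKG replicate 1 omitted) and -0.28 (SKG replicate 3 omitted).

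**Figure D2:**
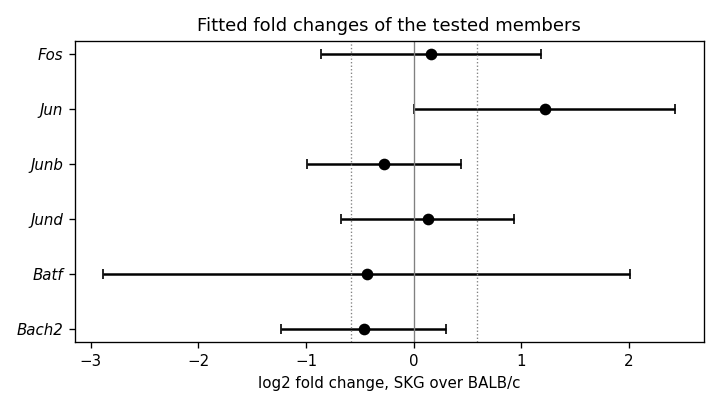
Fitted log2 fold changes, SKG over BALB/c (x axis), of the 6 tested members (y axis) with 95% intervals of edgeR's quasi-likelihood fit; dotted lines mark a change of 1.5-fold. The Jun interval, 0.003 to 2.43, barely clears 0, those of Fos, Junb, Jund and Bach2 span 0, and that of Batf is the widest, from -2.88 to 2.01.

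To compare levels between genes, CPM was divided by the merged exon length in kb. Junb was highest, at 101 ± 11.9 CPM per kb in BALB/c and 83.2 ± 34.2 in SKG (SD, n = 3 libraries each). Its lowest library, at 58.4, was above the highest Fos library, at 49.9. Fos followed at 35.7 ± 12.6 and 39.9 ± 15.9, and Jund at 26.3 ± 7.23 and 28.7 ± 2.27. These neighbours overlapped, with 21.3 to 49.9 for Fos and 18.8 to 33.2 for Jund. Jun was at 9.82 ± 4.53 in BALB/c, where its highest library (13.1) was below the lowest Jund library (18.8). In SKG it was at 22.8 ± 9.40, and its libraries, from 16.4 to 33.6, overlapped those of Jund (26.2 to 30.5). Against Bach2, the next gene down, Jun overlapped in BALB/c but was higher in every SKG library. The place of Jund depends on its exon length, since over its 791 unshared exon nt it was at 55.4 ± 15.2 in BALB/c and 60.6 ± 4.79 in SKG (SD, n = 3 each). On that scale Jund was above Fos and Jun in every SKG library and overlapped Junb there, and in BALB/c it overlapped Fos. Bach2 and Batf were lowest among the tested members and overlapped each other, with 3.68 to 7.94 for Bach2 and 1.61 to 8.77 for Batf. Exon lengths are those of the GENCODE annotation, which counts exons of all transcripts, so a gene that uses only part of its listed exons would read low on this scale.

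**Figure D3:**
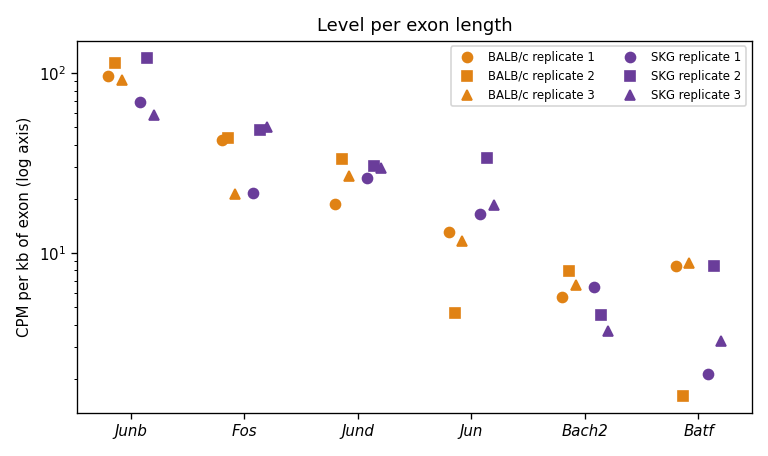
Level of the 6 tested members per kb of exon (y axis, log axis, CPM per kb) in each library, BALB/c in orange and SKG in purple. Junb is above Fos in every library, Fos and Jund overlap, and Jun lies below Jund in BALB/c but overlaps it in SKG.

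The rest of the mouse bZIP family was represented by 45 genes, of which 44 have a row and 30 were tested. In edgeR 0 passed in either direction, 11 had a log2 fold change above 0 and 19 below 0, and the median was -0.21 against -0.016 over all genes tested. Libraries did not overlap for 2 of the 30, Crebzf and Atf2, which were also the 2 with an unadjusted p under 0.05. Over all genes tested 13.9% did not overlap and 5.45% had such a p, so the 2 genes are near or below the background. Crebzf, which encodes a bZIP protein that acts with host cell factor, was at 67.6 ± 20.6 CPM in BALB/c against 134 ± 19.0 in SKG (SD, n = 3 libraries each). Its log2 fold change was 0.98 (standard error 0.28, edgeR adjusted p = 0.750), and DESeq2 without shrinkage called it (adjusted p = 0.0845). DESeq2 with shrinkage (adjusted p = 0.115) and edgeR's likelihood ratio test (adjusted p = 0.254) did not. Atf2 encodes a stress kinase target that can pair with c-JUN at CRE-like sequences. It was at 69.4, 75.3 and 99.6 CPM in BALB/c and at 189, 117 and 118 in SKG. The fitted value for Atf2 was 0.79 on the log2 scale (standard error 0.28, edgeR adjusted p = 0.834). Fosl1, the remaining FOS gene, had 543, 0 and 76 reads across the BALB/c libraries, against 127, 9 and 1 for SKG, and like Fosl2 it was highest in BALB/c replicate 1. Atf3 and Batf2 had 0 reads in every library.

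Of 26 kinases, nuclear targets and ligases on the MAP kinase route to AP-1, 25 were tested and 0 passed in edgeR, with a median log2 fold change of -0.10. Libraries did not overlap for 4 of the 25, and 2 had an unadjusted p under 0.05, Mapk9 and Cops5, both near the 13.9% and 5.45% of all genes tested. Mapk9, which encodes the JUN kinase JNK2, was at 121 ± 18.2 CPM in BALB/c against 182 ± 42.6 in SKG (SD, n = 3 libraries each), with an edgeR adjusted p of 0.871. Mapk14, the p38 alpha kinase gene, was at 145 ± 49.6 and 222 ± 22.7 (SD, n = 3 each, edgeR adjusted p = 0.952). Cops5, whose product JAB1 binds c-JUN, was higher in BALB/c, at 137 ± 26.4 against 92.8 ± 12.0 (SD, n = 3 each, edgeR adjusted p = 0.871).

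NFAT and IRF genes share composite sites with AP-1 or BATF, and 4 of the 5 listed were tested. In edgeR 0 of the 4 passed. An unadjusted p under 0.05 was found for 2, Nfatc1 and Nfatc3, against 5.45% of all genes tested. Libraries did not overlap for the same 2, against 13.9% of all genes tested. Nfatc1 was at 1154, 1176 and 1170 CPM in BALB/c and at 1869, 2633 and 1829 in SKG, so the BALB/c libraries were nearly equal and all SKG libraries were above them. Its log2 fold change was 0.85 (standard error 0.17). The adjusted p was 0.617 with edgeR's quasi-likelihood test, 0.0250 with DESeq2 without shrinkage, 0.0303 with shrinkage and 0.0153 with edgeR's likelihood ratio test, so the last 3 called it. Nfatc3 was at 128 ± 36.8 and 224 ± 50.7 (SD, n = 3 each), also without overlap (edgeR adjusted p = 0.834), and Nfatc2 overlapped, at 52.4 ± 23.3 and 46.4 ± 9.28 (SD, n = 3 each). Irf4, the partner of BATF, had 1, 597 and 68 reads across the BALB/c libraries, against 2, 0 and 2 for SKG. It was not tested in edgeR and was called by DESeq2 without shrinkage (adjusted p = 0.0212) but not with it (adjusted p = 0.407), and most of its reads came from BALB/c replicate 2.

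Of 12 T cell genes linked to AP-1, BATF or BACH2, 6 were tested and 0 passed in edgeR, with a median log2 fold change of 0.82. The median and the summed level differ in direction, since the sum was 412 to 544 CPM in BALB/c and 239 to 411 in SKG. Values above 0 came from Il2ra, Il21 and Ctla4, each with under 5 reads in at least 1 library of both genotypes. Libraries did not overlap for 1 of the 6, against 13.9% of all genes tested. The same gene was the 1 with an unadjusted p under 0.05, against 5.45% of all genes tested. It was Cd69, the early activation antigen, at 353 ± 39.9 CPM in BALB/c against 193 ± 50.4 in SKG (SD, n = 3 libraries each). Its log2 fold change was -0.87 (standard error 0.22, edgeR adjusted p = 0.686). All cells had been sorted on CD69 protein at the surface. Il2 had 0 to 10 reads per library, and Tnf, Csf2 and Prdm1, the last a gene that BACH2 represses, had 0 in every library.

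Immediate early and heat shock genes also respond to the handling of tissue, so 18 of them other than the members were examined beside Fos and Jun. Of these 15 were tested, 0 passed in edgeR, 3 had a log2 fold change above 0 and 12 below 0, and the median was -0.34. An unadjusted p under 0.05 was found for 3, the genes Ier2, Egr1 and Zfp36, against 5.45% of all genes tested. The summed level of all 18 was 3829 to 5422 CPM in BALB/c and 2552 to 3180 in SKG. Ier2, an immediate early gene of a nuclear protein, was at 1071, 799 and 668 CPM in BALB/c and at 318, 297 and 266 in SKG. Its log2 fold change was -1.53 (standard error 0.20, edgeR adjusted p = 0.380). Egr1, a zinc finger factor induced through ERK, was at 1784 ± 208 in BALB/c against 942 ± 49.8 in SKG (SD, n = 3 libraries each). Its edgeR adjusted p was 0.447. The study, which used DESeq2 on these libraries, reported Egr1 as differentially expressed, with less mRNA in SKG. It describes Egr1 as a known target of TCR signaling in thymic selection. Zfp36, whose product destabilizes mRNA, was at 214 ± 15.9 and 119 ± 49.0 (SD, n = 3 each, edgeR adjusted p = 0.834). All 3 were higher in each BALB/c library than in any SKG library, whereas Fos and Junb overlapped and Jun was higher in SKG. Libraries did not overlap for 4 of the 15, against 13.9% of all genes tested. The gene besides these 3 was Rhob, which was higher in SKG. It was at 0.41, 0.40 and 9.30 CPM in BALB/c and at 17.7, 16.7 and 22.3 in SKG. DESeq2 called Ier2 and Egr1 with and without shrinkage. The part of tissue handling in these levels was not tested.

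The genes most like a member across the 6 libraries were sought by Pearson correlation of log2 CPM. For Fos these were Dusp1 (r = 0.985), which encodes a phosphatase of MAP kinases, Parp16 (r = 0.973) and Clk4 (r = 0.971). Dusp1 was at 176, 170 and 77.1 CPM in BALB/c and at 77.2, 254 and 244 in SKG, with BALB/c replicate 3 and SKG replicate 1 low as for Fos. For Junb they were Trmt1l (r = 0.987), Tmem11 (r = 0.982) and Tssc4 (r = 0.982), and for Bach2 they were Prelid2 (r = 0.986), Ece1 (r = 0.983) and Ybx3 (r = 0.981). Of the 12312 genes tested, 36, 114 and 139 had an r above 0.9 with Fos, Junb and Bach2 in that order. These genes were picked as the highest of all tested over only 6 points, so their r values do not show a link.

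**Figure D4:**
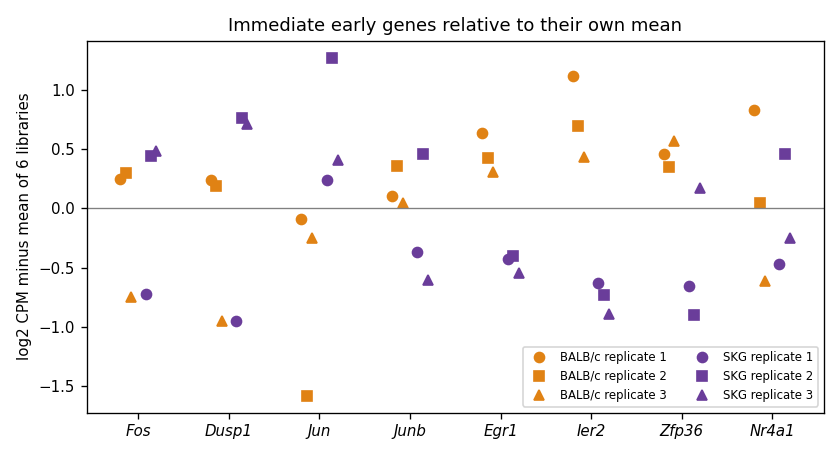
Log2 CPM of 8 immediate early genes minus the mean of each gene over the 6 libraries (y axis), BALB/c in orange and SKG in purple. Egr1, Ier2 and Zfp36 split by genotype with BALB/c above, Jun splits with SKG above, Fos and Dusp1 share their 2 low libraries (BALB/c replicate 3 and SKG replicate 1), and Junb and Nr4a1 overlap.

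Library totals ranged from 37176544 to 43115544 reads on genes, and 10835 to 14791 genes had at least 10 reads. The spread between libraries of a genotype was wide, with a common dispersion of 0.842. For the cell label, the listed stage 0 markers were read in every library, Trav11 with only 1 to 7 reads. Cd3e was at 928 ± 153 and 987 ± 69.5 CPM in BALB/c and SKG (SD, n = 3 each), but it is not particular to stage 0 cells. Trav11d, a TCR alpha variable segment, was at 26.1 ± 4.50 and 25.1 ± 2.61 CPM. Zbtb16 was at 151 ± 28.0 and 119 ± 41.8 CPM (SD, n = 3 each). Cd24a, whose protein the sort used, varied widely and overlapped. It was at 52.4, 7.31 and 15.6 CPM in BALB/c and at 31.9, 88.6 and 90.7 in SKG. Of 8 stage 0 markers 7 were tested, 0 passed in edgeR and 3 had an unadjusted p under 0.05, against 5.45% of all genes tested. The 3 were Cd69, Egr2, at 1351 ± 230 and 777 ± 249, and Slamf6, at 2628 ± 223 and 3325 ± 338 (SD, n = 3 each). Libraries did not overlap for these 3 of the 7, against 13.9% of all genes tested. Summed levels of the 5 marker lists of other cells (DP thymocytes, B cells, myeloid cells, thymic epithelium and the erythroid list above) separated the genotypes in 0 cases. DP thymocyte markers summed to 67.7 to 437 CPM in BALB/c and 89.1 to 223 in SKG, and myeloid markers to 4.12 to 64.8 and 5.96 to 135. The B cell sums were 1.73 to 6.84 and 0 to 3.87 CPM, and the epithelial sums, mostly Epcam, 28.1 to 41.4 and 10.0 to 86.9. Zap70 itself is altered in its protein by the SKG mutation, so its reads do not check the genotype labels.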

How the data were processed

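RNA-Seq counts of 6 libraries, 3 BALB/c and 3 SKG, were analysed. The authors aligned 50-nt reads to GRCm38 with HISAT2 2.1.0 and counted those on exons, regardless of strand, with featureCounts (Subread 1.4.4) and an Ensembl annotation, requiring a mapping quality of 10, per the study's methods and the submitters' processing notes. The counts deposited by the authors are whole numbers without normalization. A second deposited table holds the authors' DESeq2 comparison and was not used. The labels and the study's methods name different amplification kits, which could change the spread between libraries.

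All libraries entered one fit in R 4.3.3 with edgeR 4.0.16, without covariates. Genes were kept by filterByExpr (minimum count 10), normalized by TMM and tested by the quasi-likelihood F test of edgeR. Benjamini-Hochberg adjustment ran over the 12312 genes kept. Standard errors were taken as the size of the log2 fold change over the root of F, and intervals used the moderated degrees of freedom. Alternatives were DESeq2 1.42.0, limma-voom (limma 3.58.1), other normalization and filters, replicate blocks, each library left out and other thresholds. The likelihood ratio test of edgeR was added after seeing the data. Correlations of log2 CPM used a prior count of 2. Fits were tested on simulated data with a lower dispersion than found here. That check does not show what the fits can detect at this spread. Exon lengths and positions came from GENCODE M21 on GRCm38, and promoter sequences from RefSeq on GRCm38.p6.

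The members and gene lists were chosen with earlier results of these data known. Named genes are the members, up to 3 genes per other list with the lowest p among those without overlap, the 3 most correlated genes of Fos, Junb and Bach2, and some members of lists chosen after their values were seen. Labels call the libraries separate samples, so p-values measure the spread between pools. PCR copies cannot be told apart, so limits from a count of 0 cover counting error only.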

Additional observations from a re-analysis of the deposited data

How the results depend on the processing

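Of the members, 0 were called among the 6 tested in the quasi-likelihood fit and in each of the 19 alternatives that give calls, 3 of which tested all 8. Only DESeq2 with or without shrinkage, the likelihood ratio test and the fit without a filter called any gene at all. In the other alternatives a count of 0 members therefore says nothing about the members in particular. Over 108 alternative values for single members, 104 kept their direction and their side of the threshold. The other 4 changed sign, and none of them had been called. They were Fos without BALB/c replicate 3 (-0.10) and without SKG replicate 3 (-0.015), Jund without BALB/c replicate 1 (-0.056), and Batf with the library number as a replicate block (0.51). The library numbers leave SKG replicate 1 and BALB/c replicate 3 unmatched. With 1 library left out, Fos ranged from -0.10 to 0.46 and Jund from -0.056 to 0.33. Jun stayed above 0 in all 18, from 0.84 to 1.67, with an adjusted p from 0.356 to 1, and Bach2 and Junb stayed below 0. Alternatives that changed only the threshold kept the p-values of the main fit and could only repeat its unadjusted result. No member had an unadjusted p under 0.05 in 8 of 19 alternatives. These used upper-quartile factors, library size alone or either replicate block, or left out BALB/c replicate 2 or 3 or SKG replicate 1 or 3. Without SKG replicate 2, 1 member had such a p. In that fit Junb (edgeR adjusted p = 0.921) ranked ahead of Jun (0.990), so the unadjusted p of Jun was not under 0.05 there either. With the title number as a replicate block 0 genes and 0 members were called, and the log2 fold change of Jun was 1.24. Residuals of libraries with the same title number correlated at -0.145 to -0.00962, and of those with the same library number at -0.0384 and 0.00289. The libraries were therefore not treated as pairs.

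Over all genes the count of 0 became 370 with DESeq2 without shrinkage, 231 with shrinkage, 96 with the likelihood ratio test and 2 without a filter on low counts. For the lists, DESeq2 without shrinkage called 1 other bZIP gene (Crebzf) and 2 NFAT and IRF partners (Nfatc1 and Irf4). It also called 2 of the immediate early and heat shock genes (Ier2 and Egr1). With shrinkage and with the likelihood ratio test the counts were 1 (Nfatc1) and 2 (Ier2 and Egr1). The cause was not tested. The lowest adjusted p of any gene in the quasi-likelihood fit was 0.212. For Fosl2, without a filter edgeR gave -6.10 (adjusted p = 0.645) and DESeq2 without shrinkage -6.37 (adjusted p = 0.437).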

Other observations

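Within an intron of Bach2 lies the sense transcript Bach2it1, which shares 0 exon nt with it and was picked out after its values were seen. Its reads numbered 57, 17 and 19 in BALB/c replicates 1 to 3 and 0 in each SKG library, an unadjusted p of 0.00280 and an adjusted p of 0.617 from edgeR's quasi-likelihood test. The antisense transcript Bach2os shares 537 exon nt with Bach2 and had 83, 5 and 6 reads across the BALB/c libraries, against 10, 78 and 0 for SKG. Junos, which shares 232 exon nt with Jun on the other strand, had 18 reads in BALB/c replicate 3, 26 in SKG replicate 1 and 0 in the other libraries. These reads are few beside those of Jun and Bach2 themselves. Given the zeros among well-read genes described with Fosb, 0 reads of Bach2it1 do not show its absence from SKG cells.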
